A study of Mus musculus with 12 samples.

Results

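Medium spiny neurons are the projection neurons of the striatum, and 9 genes that mark them were followed here in the brains of mice with and without Mettl5: the dopamine receptors Drd1 and Drd2, the adenosine receptor Adora2a, the signalling genes Ppp1r1b, Rgs9 and Pde10a, the neuropeptide precursors Tac1 and Penk, and the nuclear receptor Rxrg. They were chosen by name, as the rows of the count table whose gene identifiers map to these symbols, and all 9 were found among its 55487 genes. Mean levels of all 9 genes were higher in KO than in WT brain, with log2 fold changes from 0.31 to 0.92, but none of these differences passed the test, and for each gene the KO and WT libraries overlapped. All 9 genes were lowest in the same WT library, that of mouse D, and highest in the same KO library, that of mouse A.

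Liver and brain were each sequenced as total RNA in 6 mice, 3 labelled KO (mice A, C and F) and 3 labelled WT (mice B, D and E), which gave 4 groups of 3 libraries, and the replicates are separate animals. METTL5 is the methyltransferase that modifies an adenosine of the 18S rRNA. The KO mice carry a whole-body deletion, made by crossing a line with a floxed exon 2 of Mettl5 to B6.C-Tg(CMV-cre)1Cgn/J mice, in which the recombinase is active in most tissues including the germ line; the line came from C57BL/6 x 129S6 embryonic stem cells and was backcrossed to C57BL/6, and no treatment is named in the labels. The control libraries are labelled wild type, although the study names heterozygous controls for its RNA sequencing as well. They name the tissue only as brain, with no region, and they give no age, sex, litter or batch. Brain libraries held from 14403309 to 18365114 counts and liver libraries from 16145754 to 21623180.

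Spiny neurons form the 2 output pathways of the striatum. Neurons of the direct pathway carry the D1 dopamine receptor, which raises cAMP, and release substance P, whereas neurons of the indirect pathway carry the D2 receptor, which lowers cAMP, together with the adenosine receptor encoded by Adora2a, and release enkephalin. DARPP-32 (Ppp1r1b), RGS9 and PDE10A act on the same signal inside both kinds of neuron, and a loss or gain of this signal alters movement and reward. In bulk tissue, fewer spiny neurons and less of these transcripts per neuron cannot be told apart.

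The 9 genes lie on 8 chromosomes of the mm10 build, with Ppp1r1b and Rgs9 both on chromosome 11. Drd1 (ENSMUSG00000021478.6) lies at chr13:54051183-54055705 on the minus strand, Drd2 (ENSMUSG00000032259.8) at chr9:49340627-49408177 on the plus strand and Adora2a (ENSMUSG00000020178.6) at chr10:75316877-75334784 on the plus strand. Ppp1r1b (ENSMUSG00000061718.12) lies at chr11:98348404-98357796 on the plus strand, Rgs9 (ENSMUSG00000020599.13) at chr11:109225355-109298129 on the minus strand and Pde10a (ENSMUSG00000023868.17) at chr17:8525372-8986648 on the plus strand. Tac1 (ENSMUSG00000061762.12) lies at chr6:7554879-7565834 on the plus strand, Penk (ENSMUSG00000045573.9) at chr4:4133531-4138819 on the minus strand and Rxrg (ENSMUSG00000015843.10) at chr1:167598384-167639623 on the plus strand. Ppp1r1b, Pde10a and Penk overlap annotated genes on the other strand, and the counting kept the strands apart.

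Promoter windows of 300 bases, 250 before and 50 from the annotated start, were read from RefSeq (GRCm38.p6) to see what sequence the genes share. Windows were held for 6 of the 9 genes, with 9 windows in all, and none for Adora2a, Penk or Ppp1r1b. Both strands were searched for a TATA box (TATAAA), a GC box (GGGCGG), a nuclear receptor half-site (AGGTCA) and a cAMP response element (TGACGTCA), and no match overlapped another. A GC box was in 7 of the 9 windows, against 35.7% of the 32851 RefSeq windows searched, and was missing only from both windows of Rxrg. The windows searched were those of 300 bases, did not cover every chromosome, and are called all windows below. The TATA box was in 1 window (Rgs9) against 13.6% of all windows, the half-site in 1 (Rxrg) against 16.3%, and the cAMP response element in 0 against 1.79%. GC content ran from 53.7% to 71.3%, with a median of 52.7% over all windows. One window each is shown for the 4 genes with the largest log2 fold changes among those with a window, 5′ to 3′ along the gene's strand, with the matches in capitals. They are Tac1 at chr6:7554811-7555110 (plus), with a GC box; Rgs9 at chr11:109298132-109298431 (minus), with a TATA box and 2 GC boxes, of which the first is read on the other strand as CCGCCC; Rxrg at chr1:167618015-167618314 (plus), with a half-site; and Drd1 at chr13:54055609-54055908 (minus), with a GC box. The bases that follow the RefSeq start were in no GENCODE transcript of the gene for the Rgs9 and Rxrg windows. They were in 1 transcript for Tac1 and in 2 for the Drd1 window shown. Whether the RefSeq start is also a transcript start was not compared. A match is a string of letters and was not tested as a binding site.
Tac1: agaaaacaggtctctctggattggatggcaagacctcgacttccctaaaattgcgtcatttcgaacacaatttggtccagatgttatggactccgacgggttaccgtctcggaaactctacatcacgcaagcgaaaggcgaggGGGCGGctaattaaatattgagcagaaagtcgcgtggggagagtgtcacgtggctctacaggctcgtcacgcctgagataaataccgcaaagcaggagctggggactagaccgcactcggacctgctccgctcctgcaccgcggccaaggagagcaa
Rgs9: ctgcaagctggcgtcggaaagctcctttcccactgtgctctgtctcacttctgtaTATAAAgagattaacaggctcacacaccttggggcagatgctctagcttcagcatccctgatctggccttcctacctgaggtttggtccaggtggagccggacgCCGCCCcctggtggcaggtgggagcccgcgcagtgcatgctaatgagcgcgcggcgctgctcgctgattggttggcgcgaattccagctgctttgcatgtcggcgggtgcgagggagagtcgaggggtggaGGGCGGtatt
Rxrg: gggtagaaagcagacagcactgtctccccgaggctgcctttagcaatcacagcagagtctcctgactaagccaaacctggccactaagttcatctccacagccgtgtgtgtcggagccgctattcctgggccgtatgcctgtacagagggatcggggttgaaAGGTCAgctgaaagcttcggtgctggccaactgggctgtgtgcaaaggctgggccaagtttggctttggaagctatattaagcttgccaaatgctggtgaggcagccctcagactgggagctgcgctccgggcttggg
Drd1: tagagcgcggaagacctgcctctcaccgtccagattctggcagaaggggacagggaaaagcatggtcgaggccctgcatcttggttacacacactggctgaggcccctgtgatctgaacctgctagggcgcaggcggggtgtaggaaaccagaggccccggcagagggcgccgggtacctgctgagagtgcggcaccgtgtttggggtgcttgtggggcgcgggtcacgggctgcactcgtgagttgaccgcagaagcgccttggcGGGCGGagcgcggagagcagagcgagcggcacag

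The targeted gene was read first. Mettl5 had 9.09, 5.87 and 5.02 CPM (counts scaled to a common library size, after edgeR's TMM factor) in the WT brains of mice B, D and E, and 3.33, 3.96 and 3.82 CPM in the KO brains of mice A, C and F. All KO libraries lay below all WT libraries, with a log2 fold change of -0.84 (SE 0.27) and an adjusted p of 0.373 in edgeR's quasi-likelihood test with Benjamini-Hochberg adjustment. Reads are counted over all exons of the gene, so the deleted exon is not read on its own.

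The levels of the 9 genes were set side by side per exon length, as RPKM (CPM over the summed exon length in kilobases). Penk, the precursor of the enkephalins, was the most abundant at 117 ± 32.6 RPKM (SD over the 6 brain libraries), followed by Ppp1r1b at 58.6 ± 13.4 and Pde10a at 14.7 ± 3.84. Rxrg had 9.47 ± 3.81 RPKM and Rgs9 had 8.35 ± 3.44. Drd1 (5.33 ± 2.34 RPKM), Adora2a (4.99 ± 2.08), Tac1 (4.80 ± 2.39) and Drd2 (4.33 ± 1.42) came last. The order of Penk, Ppp1r1b, Pde10a and Rxrg held in 6 of 6 libraries, Rxrg exceeded Rgs9 in 5 of 6, and Rgs9 exceeded Drd1 in 6 of 6. Neighbours among the last 4 genes exceeded each other in only 3 of 6 libraries and do not differ beyond their spread.

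**Figure D1:**
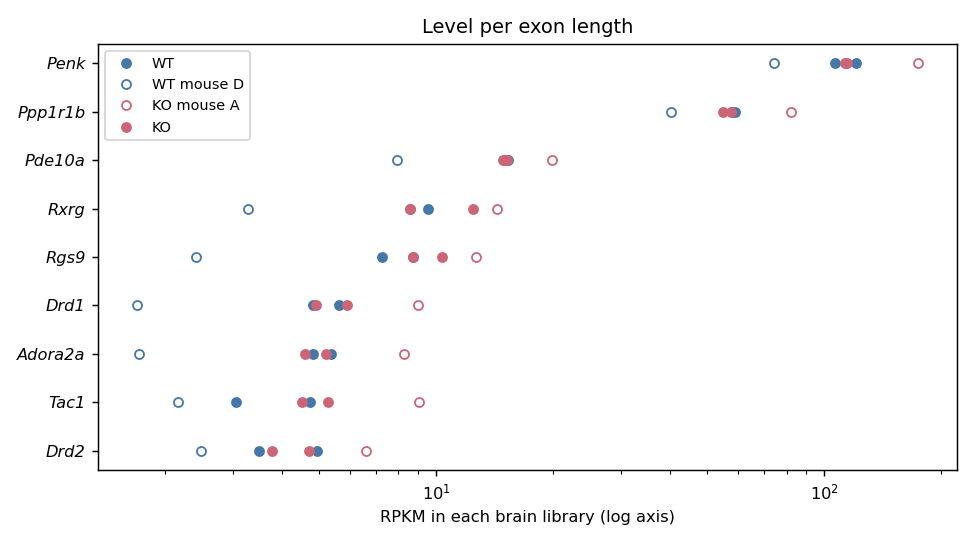
Level of each gene per exon length in the 6 brain libraries (x axis: RPKM, log scale), with WT in blue, KO in red, and open symbols for WT mouse D and KO mouse A. Penk and Ppp1r1b stand above the other genes in every library, and the open symbols form the lower and upper end of every row.

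In liver, which has no spiny neurons, Drd1, Drd2 and Tac1 had 0 counts in all 6 libraries, which allows at most 3 counts per library. Penk had between 0 and 14 counts, with the 14 in WT mouse E. The other genes were read at low levels: Rxrg, a nuclear receptor not limited to brain, had 35 to 149 counts (2.11 to 7.77 CPM), and Adora2a, Ppp1r1b, Rgs9 and Pde10a had between 3 and 39 counts. Summed over the 9 genes, liver libraries held 8.13 to 12.9 CPM and brain libraries 389.7 to 1001 CPM. The 5 genes that passed the filter on low counts in liver had log2 fold changes from -0.09 to 0.30 between genotypes, and 0 of 5 were called, with adjusted p from 0.909 to 0.994 (edgeR; 0% of 14075 liver genes were called).

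The receptors came first in the comparison of genotypes in brain. Drd1, the D1 dopamine receptor, had 20.4, 6.17 and 17.5 CPM in WT mice B, D and E, and 32.6, 17.8 and 21.4 CPM in KO mice A, C and F. WT mouse D lay far below the other libraries and KO mouse C fell between the upper WT libraries. The log2 fold change was 0.71 (SE 0.41, 95% confidence interval -0.24 to 1.65, adjusted p 0.537).

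Drd2, the D2 receptor, had 8.89, 6.32 and 12.6 CPM in the same WT libraries and 16.8, 12.01 and 9.62 CPM in the KO libraries. Only KO mouse A exceeded the highest WT library. Its log2 fold change was 0.47 (SE 0.29, interval -0.18 to 1.11, adjusted p 0.550). Adora2a, the adenosine receptor that opposes D2 signalling, had 14.8, 5.27 and 16.4 CPM in WT and 25.3, 15.97 and 14.1 CPM in KO. KO mouse F was below both upper WT libraries, and the log2 fold change was 0.60 (SE 0.40, interval -0.32 to 1.52, adjusted p 0.575).

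The genes that act on the cAMP signal inside the cell gave both the smallest difference and one of the larger ones. Ppp1r1b, which encodes the phosphatase inhibitor DARPP-32, had 169, 118 and 172 CPM in WT and 241, 169 and 161 CPM in KO, so that KO mice C and F lay below WT mice B and E. The log2 fold change was 0.31 (SE 0.20, interval -0.14 to 0.76, adjusted p 0.567). Pde10a, a phosphodiesterase that breaks down cyclic nucleotides, had 197, 102 and 193 CPM in WT and 256, 191 and 195 CPM in KO. KO mouse F lay between WT mice B and E and KO mouse C just below them, and the log2 fold change was 0.38 (SE 0.25, interval -0.18 to 0.94, adjusted p 0.566).

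Rgs9, which speeds the end of G protein signals, had 55.7, 15.4 and 46.5 CPM in WT and 80.9, 55.6 and 66.1 CPM in KO. KO mouse C and WT mouse B were level, and WT mouse D held 30.1% of the mean of the other WT libraries, the lowest such share of the 9 genes. The log2 fold change was 0.79 (SE 0.40, interval -0.14 to 1.71, adjusted p 0.495).

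Of the peptides, Tac1, the precursor of substance P, had 16.1, 7.38 and 10.4 CPM in WT and 30.8, 15.3 and 17.9 CPM in KO. KO mouse C lay just below WT mouse B, and all other KO libraries were above all WT libraries. Tac1 had the largest log2 fold change of the 9, at 0.92 (SE 0.34, interval 0.15 to 1.70), with an unadjusted p of 0.0243 and an adjusted p of 0.400 (edgeR). Penk had 174, 121 and 197 CPM in WT and 286, 185 and 187 CPM in KO. Again only KO mouse A exceeded all WT libraries, and the log2 fold change was 0.42 (SE 0.23, interval -0.09 to 0.92, adjusted p 0.510).

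Rxrg, a retinoid X receptor that is enriched in the striatum, had 21.9, 7.53 and 19.7 CPM in WT and 32.9, 19.7 and 28.7 CPM in KO. KO mice A and F lay above all WT libraries and KO mouse C was level with WT mouse E. The log2 fold change was 0.73 (SE 0.37, interval -0.12 to 1.58, adjusted p 0.493).

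**Figure D2:**
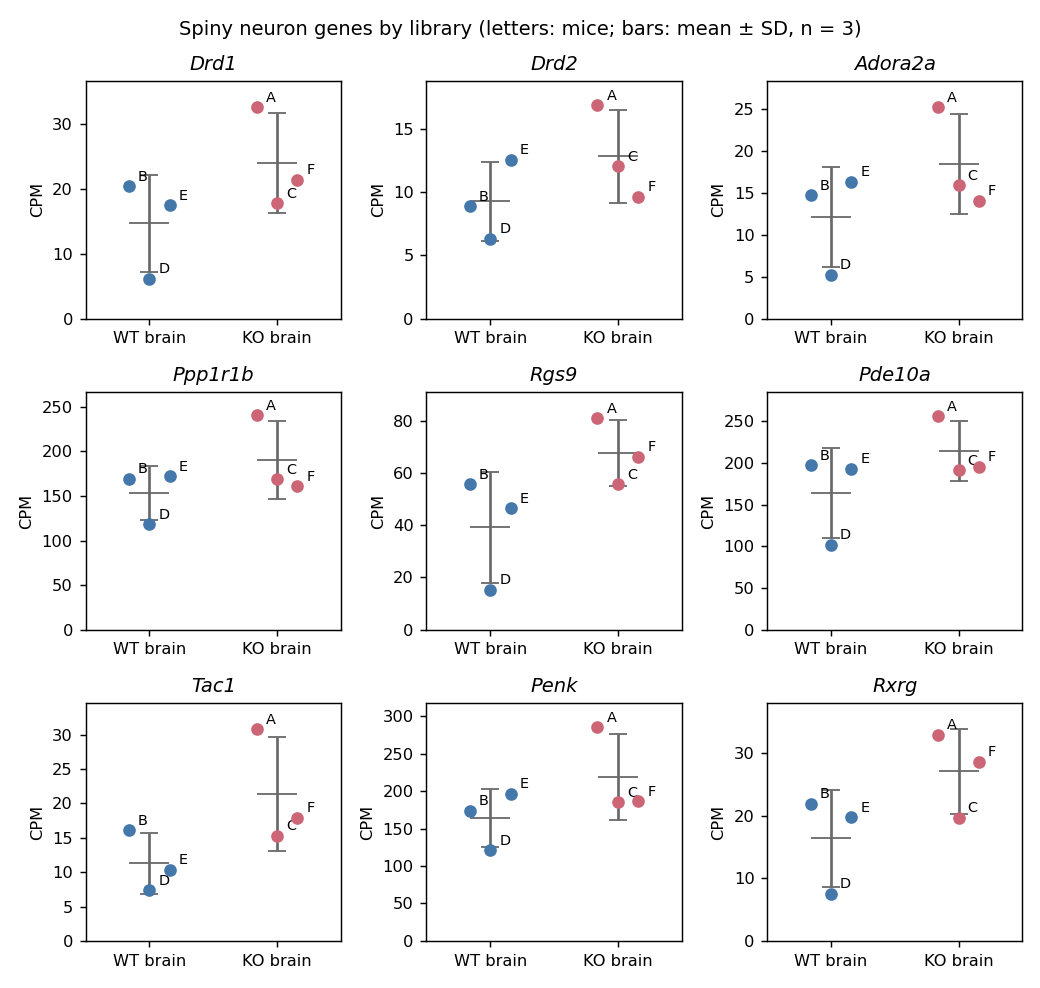
CPM of each gene in the 6 brain libraries (y axes start at 0; points are mice, named by letter; bars are mean ± SD, n = 3 per genotype). In every panel mouse D is the lowest point and mouse A the highest, and the remaining WT and KO mice overlap or lie close together.

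Counted together, 0 of the 9 genes were called at an adjusted p under 0.1, where 0.064% of the 17188 brain genes tested were called (11 genes). At an unadjusted p under 0.05, 1 of the 9 (Tac1) was higher in KO, against 5.96% of genes tested. That count was 0 without WT mouse D or without KO mouse A, 3 with DESeq2 and 7 with no filter on low counts. The shares of all genes at this threshold in those fits are not given here. In 0 of the 9 did all KO libraries lie above all WT libraries, against 8.41% of genes tested. KO means were higher for 9 of the 9, against 8558 of the 17188 genes tested. The median log2 fold change of the 9 genes was 0.60, and that of all genes tested was -0.0016. With no filter on low counts, Tac1 (adjusted p 0.00118) and Rxrg (0.0408) were called, in an edgeR fit that called 3.15% of 31780 genes; DESeq2, which called 1.52% of the 17567 genes it gave an adjusted p, called 0 of the 9, with Tac1 at 0.188.

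The 2 libraries at the ends of the range carried much of the difference. Of the genes tested, 26.9% were lowest in WT mouse D, 24.6% were highest in KO mouse A and 12.5% were both, as were 9 of the 9 spiny neuron genes. WT mouse D held between 30.1% (Rgs9) and 69.3% (Ppp1r1b) of the mean of the other WT libraries, with Drd1 at 32.6%, Adora2a at 33.8% and Rxrg at 36.1%. Without WT mouse D the median log2 fold change of the 9 genes was 0.24, and without KO mouse A it was 0.31; it lay between 0.68 and 0.86 when any of the other 4 mice was left out. The sign stayed positive for all 9 genes in each of these fits, and no adjusted p was under 0.1. Without WT mouse D, Tac1 had the largest of the 9 values, 0.69 on the log2 scale, and Pde10a the smallest, 0.13, whereas without KO mouse A the value of Rgs9 (0.64) was above that of Tac1 (0.57). Without WT mouse D the adjusted p of the 9 genes lay between 0.935 and 0.990 (edgeR).

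**Figure D3:**
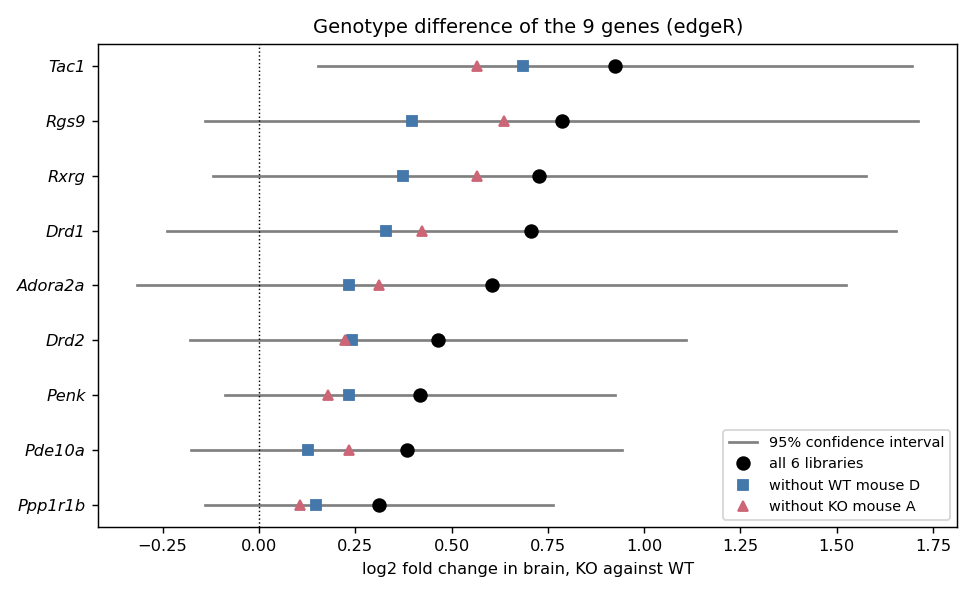
log2 fold change of KO against WT brain for each gene in edgeR (black points, with 95% confidence intervals as grey bars), beside the same estimate without WT mouse D (blue squares) and without KO mouse A (red triangles). All estimates are above 0, and the intervals of 8 genes include 0.

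The balance of the pathways was read as ratios of CPM within a library. Drd1 to Drd2 was 2.30, 0.976 and 1.39 in WT mice B, D and E and 1.94, 1.49 and 2.23 in KO mice A, C and F, so the ranges overlapped. The mean log2 ratio was 0.35 higher in KO (exact permutation test, two-sided, p = 0.5, adjusted over the 3 ratios 0.6). Tac1 to Penk ran from 0.0526 to 0.0925 in WT and from 0.0829 to 0.108 in KO, a log2 difference of 0.51 (exact permutation p = 0.2, adjusted 0.6). Adora2a to Drd2, both of the indirect pathway, differed by 0.23 (exact permutation p = 0.6, adjusted 0.6). Without WT mouse D the difference was -0.040 for Adora2a to Drd2, a change of sign, and 0.054 for Drd1 to Drd2. With 3 libraries against 3 the smallest p this test can give is 0.1.

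Other spiny neuron genes were read from lists written from general knowledge, but with earlier results of these data known, so they give no independent check. Of 26 genes, 25 were tested; Gpr52 was not analysed here. KO means were higher for 24 of the 25, against 8558 of the 17188 genes tested. The median log2 fold change was 0.45, and 0 were called. With no filter on low counts 9 of the 25 were called (3.15% of all genes in that fit), and with DESeq2 3 (1.52%). At an unadjusted p under 0.05, 8 of the 25 were higher (5.96% of all genes tested) and 1 was lower, and in 8 all KO libraries were above all WT libraries (8.41% of all genes tested). Without WT mouse D the median was 0.25 with 21 of 25 higher, and without KO mouse A it was 0.39 with 22 of 25 higher. WT mouse D was the lowest library for 19 of the 25 (26.9% of all genes tested) and KO mouse A the highest for 15 (24.6%).

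Among genes of both pathways, Arpp21, a cAMP-regulated phosphoprotein with 266 CPM in WT and 389 in KO on average, had a log2 fold change of 0.55 (SE 0.23, adjusted p 0.437), and Rasd2, a small G protein of the striatum with the highest level per length of this list (20.8 RPKM), had 0.16 (SE 0.18). The widest differences there were those of Ido1 (1.29, SE 0.49) and the transcription factor Meis2 (1.02, SE 0.23, adjusted p 0.320). In the direct pathway, Ebf1, a transcription factor of developing D1 neurons, ran against the rest with a log2 fold change of -1.07 (SE 0.24, adjusted p 0.320) and all KO libraries below all WT libraries. Isl1, another transcription factor of these neurons, had 0.65 (SE 0.52), Chrm4, the M4 muscarinic receptor, had 0.25 (SE 0.34), Sfxn1, a mitochondrial carrier, 0.12 (SE 0.14) and Pdyn, the dynorphin precursor, 0.35 (SE 0.29). In the indirect pathway, Sp9, a transcription factor of D2 neurons, had 1.13 (SE 0.27, adjusted p 0.320) and Gpr6, an orphan receptor, 0.67 (SE 0.46). Meis2 and Sp9 are also expressed in the olfactory bulb, and Ebf1 in other tissues than the striatum.

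**Figure D4:**
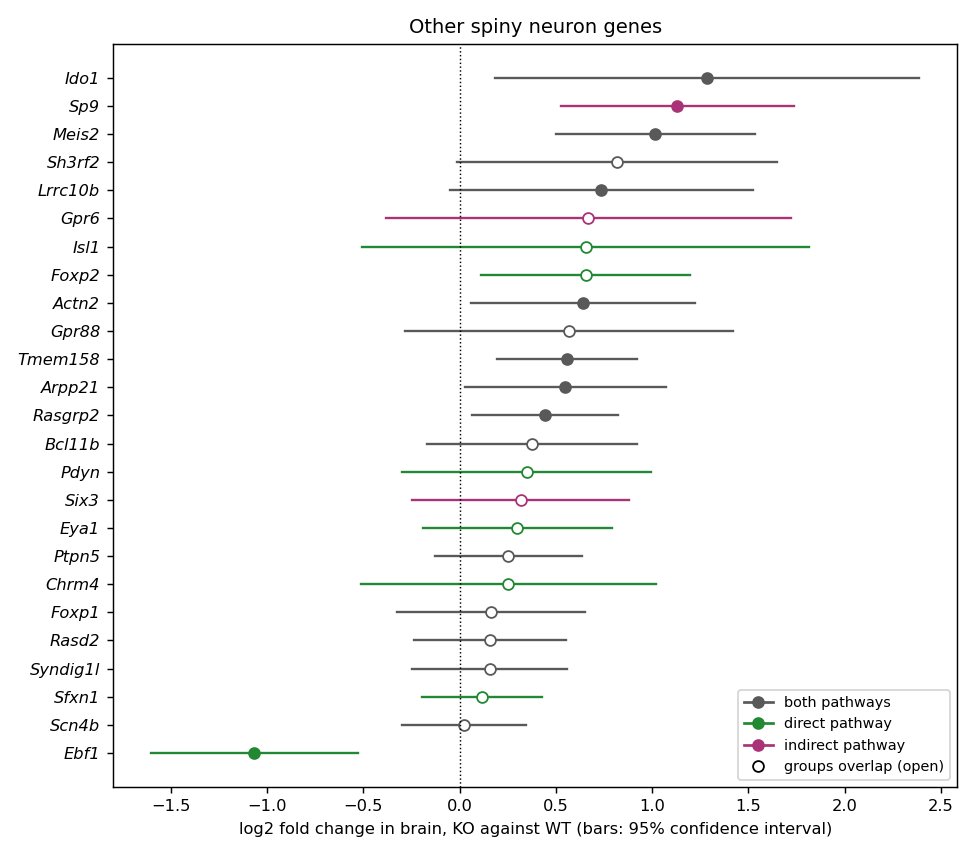
log2 fold change of KO against WT brain for 25 other spiny neuron genes, with 95% confidence intervals, coloured by pathway; filled points mark genes whose KO and WT libraries do not overlap. Points lie right of 0 for 24 genes, and Ebf1 alone lies left of it, at -1.07.

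The signalling partners of the dopamine receptors had a median nearer to 0. Of 18 tested genes for dopamine and cAMP signalling, 10 had higher and 8 lower KO means; the median log2 fold change was 0.11, and 0 were called. Pde2a, a phosphodiesterase read at 1.15 CPM in WT and 1.80 in KO, had 0.66 (SE 0.53), and Pde1b, another phosphodiesterase, had 0.45 (SE 0.19). Adcy5, an adenylyl cyclase, had 0.36 (SE 0.21), Gnal, the G protein that couples D1 to it, 0.32 (SE 0.18), and Gng7, its gamma subunit, 0.43 (SE 0.20). Ppp3ca, the calcineurin subunit with the highest level per length of the list (65.5 RPKM), had 0.08 (SE 0.22), Ppp1ca, the catalytic subunit that DARPP-32 inhibits, 0.17 (SE 0.14), and Adora1, the A1 adenosine receptor, had -0.45 (SE 0.17, adjusted p 0.409).

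Peptide receptors and processing enzymes had higher KO means for 7 of 8 genes and a median of 0.36, with 0 called. Oprk1, the dynorphin receptor, had the widest difference at 1.19 (SE 0.43, adjusted p 0.395), and Oprd1, an enkephalin receptor, had 0.55 (SE 0.31). The convertase Pcsk2 had 0.11 (SE 0.18), whereas Cpe, the carboxypeptidase that trims peptide precursors and the most abundant gene of the list, had -0.03 (SE 0.17). Among 14 genes of retinoid receptors and metabolism, 5 were higher and 9 lower, with a median of -0.15 and 0 called. Rarb, a retinoic acid receptor of the striatum, had 0.59 (SE 0.25, adjusted p 0.438) with all KO above all WT libraries, and Cyp26b1, which degrades retinoic acid, had -0.83 (SE 0.40). Rxrb, another retinoid X receptor and the most abundant gene of this list per length, had -0.25 (SE 0.16). Genes of the dopamine neurons that project to the striatum had a median of -0.20 over 8 tested genes, of which 3 were higher and 5 lower, with 0 called. Th, the enzyme that makes the dopamine precursor, had 1.10 (SE 0.44, adjusted p 0.422). En1 had -1.51 (SE 0.89), Nr4a2 -0.57 (SE 0.20) and Aldh1a1 -0.37 (SE 0.17). Whether these transcripts came from dopamine neurons was not tested.

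The pattern of the 9 genes over the 6 brain libraries was summed up as a score, the mean of their log2 CPM centred on each gene's own mean. It was 0.06 in WT mouse B, -1.06 in D and 0.01 in E, and 0.73, 0.08 and 0.17 in KO mice A, C and F. The score had an SD of 0.64 in WT and 0.35 in KO. Of 15828 other genes with a mean of at least 1 CPM, the 10 closest to this pattern by root mean square distance in log2 CPM over the 6 libraries were Gm42608 (0.060), A830073O21Rik, Dbf4, Zfp72, Gm48182, Gm37777, Rarb (0.10), Gprin3, Arhgap15 and Gcnt4 (0.11).

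Marker lists of other brain regions differed between the same libraries. Genes of the cerebellum had lower KO means for 11 of 11, a median of -1.76 on the log2 scale and 0 called, and their summed level ran from 830 to 1452 CPM in WT and from 75.8 to 541 CPM in KO. Within WT, the cerebellar sum fell in the order D, B, E (1452, 971 and 830 CPM) and the sum of the 9 spiny neuron genes had the reverse order (389.7, 678 and 685 CPM), in which mice B and E were nearly level. By score the WT order was not reversed throughout, since mouse B was above mouse E both for the cerebellum (0.82 against 0.67) and for the 9 genes (0.06 against 0.01). Within KO, the cerebellar sum ran C, F, A (541, 357 and 75.8 CPM), and the spiny neuron sum was again reversed (681, 701 and 1001 CPM). Genes of the olfactory bulb had higher KO means for 10 of 10, with a median of 3.25 and 7 called, and ran from 23.1 to 32.2 CPM in WT and from 86.9 to 118 CPM in KO; they held 7 of the 11 brain genes called. Choroid plexus genes were lower for 10 of 10, with a median of -0.93 and 0 called (244 to 407 CPM in WT, 122 to 191 in KO). The part of these differences in the values of the spiny neuron genes was not tested.

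Medians of the other lists lay closer to 0 than those of the cerebellum, olfactory bulb and choroid plexus lists. Medians were 0.10 for 10 cerebral cortex genes, 0.05 for 9 forebrain interneuron genes, -0.11 for 12 pan-neuronal genes, -0.16 for 6 oligodendrocyte genes, -0.25 for 6 astrocyte genes and 0.11 for 5 microglia genes, with 0 called in each. Hippocampus (5 genes), thalamus (7) and hypothalamus (6) had medians of -0.76, -0.34 and 0.58, with 0 called. KO means were higher for 0 of 5, 1 of 7 and 6 of 6 of these genes. The hypothalamus median was thus near that of the 9 spiny neuron genes (0.60). Pan-neuronal genes summed to 5111 to 6208 CPM in brain and 11.3 to 22.2 CPM in liver, and 5 liver genes to 11.9 to 32.0 CPM in brain, so the tissue labels match their markers. Mitochondrial rRNA took from 7.63% (mouse D) to 17.7% of counts in WT brain and from 21.4% to 31.6% (mouse A) in KO brain, and without mitochondrial genes the median of the 9 genes was 0.60. In each genotype 1 brain library had few Y-linked counts (20 in WT mouse E and 1 in KO mouse F, against at least 2291 in the others), and with this as a covariate the median was 0.63. Scaled to the pan-neuronal genes instead of all genes, the median was 0.62.

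**Figure D5:**
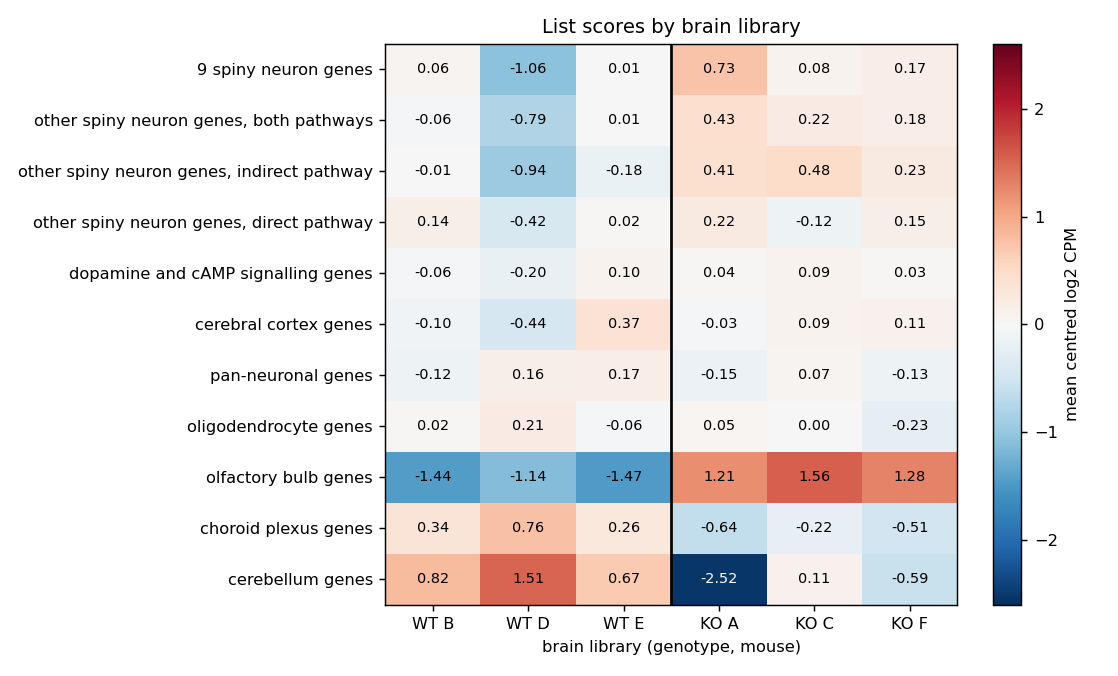
Scores of marker lists (rows) in the 6 brain libraries (columns), as the mean centred log2 CPM of the list's tested genes, with the value printed in each cell. The 9 spiny neuron genes are lowest in WT mouse D (-1.06) and highest in KO mouse A (0.73), the libraries where the cerebellum genes are highest (1.51) and lowest (-2.52).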

How the data were processed

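RNA was measured in 12 libraries from 6 mice. Single-end reads of stranded total RNA libraries were trimmed by the authors with Trimmomatic, aligned to mm10 with STAR 2.7.3a, and counted per gene over exons by featureCounts (reverse strand). The deposited values are raw counts per gene, without normalisation. Of 55487 genes, 55141 had a symbol in the reference used here and 346 had none.

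Brain libraries, 3 KO against 3 WT, were fitted with edgeR 4.0.16 (R 4.3.3): TMM scaling, filterByExpr, robust quasi-likelihood F test, and Benjamini-Hochberg adjustment across every gene tested. Genes with an adjusted p below 0.1 were called. Liver was fitted in the same way on its own libraries. Standard errors and 95% confidence intervals come from the F statistic. RPKM is CPM over summed exon length. Scores use log2 CPM with a prior count of 2. Ratios were compared by exact permutation (scipy 1.17.1). Intervals and the floor of 3 counts cover counting error or the spread of these mice only.

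The 9 genes and the gene lists were chosen with earlier results of these data known. Named are the 9 genes, Mettl5, from the lists of related genes those 2 with the largest log2 fold change (at least 1 CPM) and those 2 with the highest RPKM, and the 10 genes closest in pattern; Pdyn, Adcy5, Gnal, Gng7 and Adora1 were named after their values were seen. Lists of other cell types and regions are given by counts and medians, although the rule also covers them, and 1 gene it names is not reported here. Alternatives were DESeq2 1.42.0, RLE scaling, no filter, all 12 libraries in 1 fit, a Y-linked covariate, no mitochondrial genes, scaling to pan-neuronal genes and leaving out each mouse.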

Additional observations from a re-analysis of the deposited data

How the results depend on the processing

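For each of the 9 genes the brain log2 fold change stayed positive in every alternative fit, and the side of the adjusted p threshold changed only for Tac1 and Rxrg, which were called with no filter on low counts. Their adjusted p ranged over the alternatives from 0.00118 to 0.943 for Tac1 and from 0.0408 to 0.974 for Rxrg. The median of the 9 genes ranged from 0.24 (without WT mouse D) to 0.86 (without WT mouse E). The count of brain genes called was 11, against 1000 with no filter and 267 with DESeq2, and 2 to 23 when 1 mouse was left out (23 without KO mouse C, 2 without WT mouse E). In liver 0 genes were called by edgeR, against 443 with no filter, 171 with DESeq2, 3 in 1 fit of all 12 libraries, 82 with the Y-linked covariate and 0 to 87 when 1 mouse was left out (87 without WT mouse D, 2 without KO mouse C). The cause of these shifts was not tested. When 1 mouse was left out, the log2 difference of Drd1 to Drd2 ran from 0.054 (without WT mouse D) to 0.67, that of Tac1 to Penk from 0.34 to 0.75, and that of Adora2a to Drd2 from -0.040 (reversed, without WT mouse D) to 0.46. No paired analysis was possible because KO and WT libraries of a tissue share no mouse and, although the study counts its KO and control animals as pairs, its labels do not show which animals belong together. At this depth Drd1, Drd2 and Adora2a rest on 105 to 401 counts a library, and with 3 mice a genotype the intervals of 8 of the 9 genes include 0.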
